A study of Mus musculus with 9 samples.

Results

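The genes of glucose breakdown and of the hypoxia-inducible factor HIF-1 were followed in bone marrow-derived macrophages of the mouse. They are 35 genes, chosen by name, of the 24607 genes in the deposited table: 2 glucose transporters, the 18 enzymes from hexokinase to lactate dehydrogenase, the 3 PFKFB regulators of phosphofructokinase, the 4 pyruvate dehydrogenase kinases, the HIF-1 subunit Hif1a with 2 of its prolyl hydroxylases, and 5 HIF-1 targets outside glycolysis. All 35 passed the filter on low values (a normalized count of at least 10 in at least 3 libraries), as did 16328 genes in all. RNA was sequenced from macrophages in 3 groups of 3 libraries: co-culture with sensory neurons from dorsal root ganglia (DRG), culture with TGF-β at 0.02 ng/ml, and monoculture. All groups, the monoculture controls included, carried the genotype CX3CR1-gfp/+, were differentiated with M-CSF at 50 ng/ml and bear a time label of 5 d. The cells were sorted on CD11b and CD64 and libraries were made with a stranded low-input kit. The material came from 3 mice per the design text, and whether the same mice served every group is not stated, so p-values measure the spread between these libraries.

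Glycolysis turns glucose into pyruvate in a fixed chain of enzymes, and lactate dehydrogenase then turns pyruvate into lactate. Several steps have isozymes, which are products of separate genes that catalyse the same reaction with different kinetics and control. HIF-1 is a transcription factor whose alpha subunit, encoded by Hif1a, is marked for destruction by prolyl hydroxylases when oxygen is present. Low oxygen, and in macrophages also inflammatory stimuli, stabilise the protein, which then binds short DNA elements and raises most glycolytic genes together with targets such as Vegfa and Bnip3. The protein and its activity were not measured here, only RNA.

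The HIF-1 binding element has the core ACGTG or GCGTG, and these letters were searched on both strands, where they read CACGT and CACGC on the other strand, in windows of 250 bases before to 50 bases after each gene start (RefSeq, GRCm38.p6). Of the 33 genes with an entry, 30 (90.9%) held a core in at least one window, against 12628 of 27025 genes with an entry (46.7%). The windows of these genes were also richer in CG, with a median of 17.5 CG dinucleotides and 61.2% GC in 50 windows, against 7 and 52.7% in 32851 windows of all genes. By call against monoculture, described below, a core stood in all 6 genes called higher in co-culture, in 11 of the 14 called lower that had an entry, and in all 13 not called. Gpi1, Tpi1 and Eno2 had no core in these windows, and Slc2a3 and Ndrg1 had no entry. The stretches below are 55 bases around a core, 5′ to 3′ on the gene's strand, for genes that were higher in co-culture (Hk2, Ldhb, Pfkfb3, Hif1a, Ddit4), lower (Pfkp, Ldha, Pgk1) and not called (Bnip3). None overlaps an annotated exon. Capitals mark the core on either strand, and CACGTG is a core that overlaps its own complement.
Hk2 (chr6:82774477-82774531, minus strand): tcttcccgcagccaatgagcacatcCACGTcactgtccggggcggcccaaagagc
Ldhb (chr6:142508054-142508108, minus strand): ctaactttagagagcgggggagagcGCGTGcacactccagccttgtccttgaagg
Pfkfb3 (chr2:11502113-11502167, minus strand): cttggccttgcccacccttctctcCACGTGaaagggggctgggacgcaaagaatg
Hif1a (chr12:73907707-73907761, plus strand): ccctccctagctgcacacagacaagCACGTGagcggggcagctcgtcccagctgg
Ddit4 (chr10:59951928-59951982, minus strand): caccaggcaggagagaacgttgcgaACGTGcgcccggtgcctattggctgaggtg
Pfkp (chr13:6648878-6648932, minus strand): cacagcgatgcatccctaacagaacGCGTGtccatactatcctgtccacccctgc
Ldha (chr7:46845731-46845785, plus strand): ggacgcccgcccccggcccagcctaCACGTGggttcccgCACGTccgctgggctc
Pgk1 (chrX:106186944-106186998, plus strand): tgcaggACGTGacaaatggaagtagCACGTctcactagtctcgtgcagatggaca
Bnip3 (chr7:138909584-138909638, minus strand): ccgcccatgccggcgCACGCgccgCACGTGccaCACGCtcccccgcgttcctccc
The symmetric form CACGTG, which other factors also bind, stood in 7 of the 50 windows (14%), against 7.15% of all windows, and the stretches of Pfkfb3, Hif1a, Ldha and Bnip3 show it.

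Depth was 46.8 to 308.8 M reads (M, 1e6) per library, and 1 read equalled 0.346 to 2.27 normalized counts. The 9 macrophage markers in the table were above 0 in every library, among them the sort antigen genes Itgam and Fcgr1. Cx3cr1, whose locus is altered in all groups, had 7826 to 11181 in co-culture, 3238 to 5072 in TGF-β libraries and 310 to 321 in monoculture. Fibroblast markers were higher in co-culture, and those of other cells were mixed. Of 18 fibroblast markers 16 are in the table, with 15 or 16 above 0 in each co-culture library and 8 to 11 in each other library. They summed to 7491 to 10825 normalized counts in co-culture, 42.8 to 129 in TGF-β libraries and 59.7 to 143 in monoculture. Of 13 glial and Schwann cell markers 7 were higher and 4 lower in co-culture than in monoculture, and they summed to 19922 to 26293 in co-culture, 54245 to 58026 in TGF-β libraries and 64240.1 to 80026 in monoculture. Most of the glial sum was Pmp22 and Mbp in every library. Without these genes it was 1811 to 2231 in co-culture, 1394 to 1595 in TGF-β libraries and 1776 to 2458 in monoculture. Among the 7 higher glial markers were Ngfr (209 to 261) and Sox10 (101 to 217), which had at most 0.775 in any library of the other groups. The 15 sensory neuron markers in the table summed to 605 to 896 in co-culture, 8106 to 10758 in TGF-β libraries and 8768 to 10075.5 in monoculture, most of it Uchl1 in every library, and without it to 173 to 334, 54.1 to 56.8 and 85.2 to 109. The neuron genes Snap25 and Rbfox3 reached at most 1.99 and 3.99 in co-culture and were at 0 elsewhere. Other neuron markers were higher: Tubb3 had 87.5 to 102 in co-culture and 6.56 to 55.2 elsewhere. Nefm had 2.77 to 31.9 in co-culture and 0 elsewhere. Of the 5 sensory neuron markers that were tested, 1 was higher and 1 lower in co-culture than in monoculture. The 6 endothelial markers summed to 4254 to 4996 in co-culture, 6331 to 7347 in TGF-β libraries and 7993 to 8438 in monoculture. Of the 3 endothelial markers that were tested, 1 was higher and 2 lower in co-culture than in monoculture. In every group replicate 1 was male and replicates 2 and 3 female by the Y-linked genes and Xist. The 4 Y-linked genes summed to 109 and 108 in the female co-culture libraries, which is 0.504% and 0.503% of the male co-culture library, and to 0 to 2.30 in the other female libraries. Xist was 222 in the male co-culture library, which is 0.298% of the mean of the female co-culture libraries. In the male TGF-β and monoculture libraries Xist was 9.77 and 3.25. The part of other cells in the results below was not tested, and fewer cells of a type cannot be told apart from less RNA per cell.

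Most glycolytic enzyme genes were lower in co-culture than in monoculture, while a few isozymes and regulators were far higher. Of the 35 genes, 16 fell and 6 rose. Over all tested genes 30.8% were called, 15.9% higher and 15.0% lower. Among the 18 enzymes 11 fell, 2 rose and 5 were not called, with a median log2 fold change of -0.55, beside a median of -0.29 over the 35 genes and 0.03 over all tested genes. Every co-culture library was above every monoculture library in 8 of the 35 genes and below in 17, where 23.3% and 21.7% of all tested genes (45.0% in either direction) were separated so. The 18 enzymes together took 0.578 to 0.679% of all normalized counts in co-culture, 0.710 to 0.762% in TGF-β libraries and 0.807 to 0.938% in monoculture, and the 3 groups did not overlap. Each log2 fold change below is a difference of log2(normalized count + 10) with its standard error, and rose or fell means a limma adjusted p under 0.05.

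**Figure D1:**
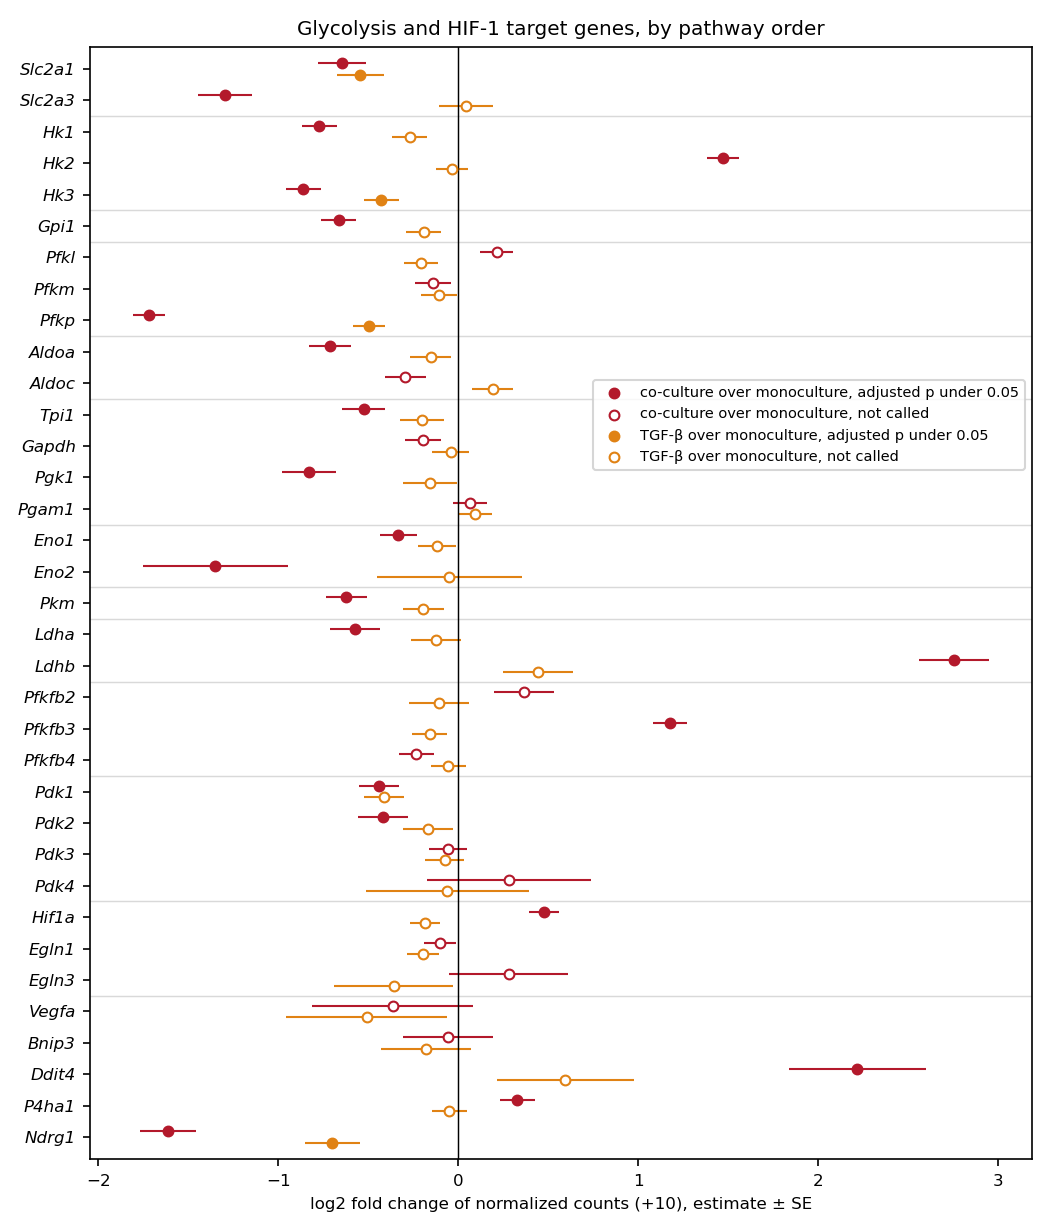
Log2 fold change (x axis, of normalized counts + 10, estimate ± SE) of the 35 genes from the first to the last steps of glycolysis and then the HIF-1 genes (y axis), for co-culture over monoculture (red) and TGF-β over monoculture (orange); filled points have an adjusted p under 0.05. Hk2, Ldhb, Pfkfb3 and Ddit4 lie far to the right in co-culture, at 1.47, 2.75, 1.18 and 2.22, and 11 of the 18 enzymes lie left of 0 with filled points.

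At the entry of glucose, both transporters were lower in co-culture. Slc2a1, the transporter GLUT1, had normalized counts of 5538, 5913 and 7680.2 in co-culture, 6703, 7563 and 6118 with TGF-β and 10171, 11115 and 8521 in monoculture. Its co-culture and TGF-β libraries interleaved, and all of them were below every monoculture library. The log2 fold change was -0.64 ± 0.13 (limma adjusted p = 0.00194) for co-culture over monoculture and -0.54 ± 0.13 (limma adjusted p = 0.0487) for TGF-β over monoculture. Slc2a3, the high-affinity transporter GLUT3, had 496, 427 and 577 in co-culture, 1116, 1184 and 1561 with TGF-β and 1119, 1229 and 1366 in monoculture. Only the co-culture libraries stood apart, below the other 6, and the log2 fold change over monoculture was -1.30 ± 0.15 (limma adjusted p = 1.28e-05).

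The hexokinases, which trap glucose as glucose 6-phosphate, moved in opposite directions. Hk2, the isozyme known for its induction by HIF-1 and by insulin, had 10624, 10926 and 10856 in co-culture, 3648, 4196 and 3591 with TGF-β and 4194, 4015 and 3516 in monoculture. Every co-culture library was well above each of the other 6, and TGF-β and monoculture overlapped. Its log2 fold change was 1.47 ± 0.09 (limma adjusted p = 2.06e-08) over monoculture and 1.50 ± 0.09 (limma adjusted p = 4.02e-08) over TGF-β. Hk1, the isozyme found in most tissues, had 8189, 7457 and 9103 in co-culture, 11444, 12152 and 11388 with TGF-β and 15623, 14215 and 12495 in monoculture. Its 3 groups did not overlap, and its log2 fold change in co-culture over monoculture was -0.77 ± 0.10 (limma adjusted p = 2.54e-05), while that of TGF-β over monoculture did not pass, at -0.27 ± 0.10 (limma adjusted p = 0.188). Hk3, an isozyme of myeloid cells, had 16991, 15950.0 and 19308 in co-culture, 20621, 24236 and 25745 with TGF-β and 32373, 31824 and 30386 in monoculture. Its 3 groups did not overlap, with co-culture lowest and TGF-β between. Against monoculture the log2 fold change of Hk3 was -0.86 ± 0.10 (limma adjusted p = 1.08e-05) in co-culture and -0.43 ± 0.10 (limma adjusted p = 0.0361) with TGF-β. Gpi1, which turns glucose 6-phosphate into fructose 6-phosphate, had 34370.4, 34786 and 42296 in co-culture, 49036, 54378 and 50590.4 with TGF-β and 61545, 59844 and 54565 in monoculture. Co-culture was well below both other groups, which lay next to each other without overlap, and the log2 fold change over monoculture was -0.66 ± 0.10 (limma adjusted p = 0.000112).

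Phosphofructokinase catalyses the committed step, and its isozymes also parted. Pfkp, the platelet-type isozyme, had 4195, 4906 and 5096 in co-culture, 10537, 11772 and 10788 with TGF-β and 16375, 15556 and 14669 in monoculture. The groups were fully separate, with co-culture lowest, TGF-β between and monoculture highest. The log2 fold change of Pfkp was -1.72 ± 0.09 (limma adjusted p = 5.32e-09) for co-culture over monoculture, -0.49 ± 0.09 (limma adjusted p = 0.00859) for TGF-β over monoculture and -1.22 ± 0.09 (limma adjusted p = 2.38e-07) for co-culture over TGF-β. In GENCODE M21 its exons share 748 bases (5.58%) with those of Pitrm1 on the opposite strand, and use of strand in counting is not stated. Pfkl, the liver-type isozyme, had 9196, 9202 and 11037 in co-culture, 7006, 7124 and 7801 with TGF-β and 8291, 9159 and 7887 in monoculture. All co-culture libraries lay above the others, narrowly over monoculture, and the difference passed over TGF-β, at 0.42 ± 0.09 (limma adjusted p = 0.00396), but not over monoculture, at 0.21 ± 0.09 (limma adjusted p = 0.102). Pfkm, the muscle-type isozyme, had 1141 to 1335 in co-culture, 1245 to 1261 in TGF-β libraries and 1291 to 1437 in monoculture and was not called in any comparison.

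PFKFB enzymes make and break fructose 2,6-bisphosphate, the strongest activator of phosphofructokinase. Pfkfb3, the isozyme with the highest kinase over phosphatase activity, had 6309, 5392 and 4899 in co-culture, 2149, 2235 and 2141 with TGF-β and 2531, 2436 and 2322 in monoculture. Every co-culture library was above every other library, and every TGF-β library was below every monoculture library. Its log2 fold change was 1.18 ± 0.10 (limma adjusted p = 3.81e-07) over monoculture and 1.34 ± 0.10 (limma adjusted p = 2.12e-07) over TGF-β. Pfkfb4 had 2259, 2392 and 2038 in co-culture, 2267, 2533 and 2786 with TGF-β and 2666, 2551 and 2636 in monoculture, with a log2 fold change of -0.23 ± 0.10 (limma adjusted p = 0.0882) over monoculture. Pfkfb2, the heart-type isozyme, had 421 to 511 in co-culture, 319 to 339 in TGF-β libraries and 284 to 406 in monoculture and was not called in any comparison.

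From aldolase to pyruvate kinase, the genes of the steps that split the sugar and yield ATP ranged from clearly lower to not called. Aldoa, the main aldolase here, had 83621, 83708 and 101915 in co-culture, 127476, 146522 and 121706 with TGF-β and 153502, 158650.0 and 128465 in monoculture. Co-culture was lower than both other groups with no overlap, at -0.71 ± 0.12 (limma adjusted p = 0.000277) over monoculture. Pgk1, which makes the first ATP of the pathway, had 26430.4, 26659 and 37444 in co-culture, 47125, 55519 and 40823 with TGF-β and 58185, 54913 and 46344 in monoculture. All co-culture libraries were below all others, although co-culture 3 came near the lowest TGF-β library, and the log2 fold change over monoculture was -0.83 ± 0.15 (limma adjusted p = 0.000845). Pkm, pyruvate kinase, had 163350.0, 158884 and 190827 in co-culture, 210438, 252438 and 226345 with TGF-β and 283999, 275017 and 230585 in monoculture, with no overlap between co-culture and the other groups, and a log2 fold change of -0.62 ± 0.12 (limma adjusted p = 0.000806) over monoculture. The table gives 1 value per gene, so the M1 and M2 transcripts of Pkm were not distinguished.

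Smaller differences were seen at Tpi1 and Eno1. Tpi1, which interconverts the triose phosphates, had 17236, 17929 and 23485 in co-culture, 22726, 26089 and 24025 with TGF-β and 31823, 27403 and 24856 in monoculture. Its co-culture libraries were below every monoculture library and overlapped TGF-β, with a log2 fold change of -0.53 ± 0.12 (limma adjusted p = 0.00417) over monoculture. Eno1, the main enolase, was at -0.33 ± 0.10 (limma adjusted p = 0.0257), with 72013 to 87511 in co-culture, 86116 to 96996 in TGF-β libraries and 87833 to 103043 in monoculture, where co-culture and monoculture were narrowly apart. The Eno1 call was lost without co-culture 1, co-culture 2, monoculture 1 or monoculture 2, with log2 fold changes of -0.30 to -0.28 (limma adjusted p = 0.0855 to 0.119). The neuronal enolase Eno2 had 170.5, 100.02 and 219 in co-culture, 348, 302 and 599.9 with TGF-β and 310.1, 298 and 755 in monoculture. The highest library of each group was replicate 3, the co-culture libraries lay below all others, and the log2 fold change over monoculture was -1.35 ± 0.40 (limma adjusted p = 0.0274). Without co-culture 1, co-culture 2 or monoculture 3 the call was lost, at -1.41 to -0.92 (limma adjusted p = 0.0537 to 0.0985). Gapdh and Pgam1, at steps on either side of Pgk1, did not pass. Gapdh had 95995, 93230.0 and 114329 in co-culture, 109970.0, 116504 and 110034 with TGF-β and 112877, 126794 and 107322 in monoculture, at -0.20 ± 0.10 (limma adjusted p = 0.174) over monoculture. Pgam1, phosphoglycerate mutase, had 14063, 14384 and 16627 in co-culture, 14997, 16120.2 and 14771 with TGF-β and 15958, 13645 and 13483 in monoculture, at 0.07 ± 0.09 (limma adjusted p = 0.648). For both genes the ranges of all 3 groups overlapped. The brain-type aldolase Aldoc was not called over monoculture (-0.29 ± 0.11, limma adjusted p = 0.0664) and was lower than with TGF-β (-0.48 ± 0.11, limma adjusted p = 0.00583). Many glycolytic genes have processed pseudogenes, and how shared reads were assigned is not stated.

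Lactate dehydrogenase held the largest log2 fold change among the 18 enzymes in co-culture. Ldhb, the isozyme of oxidative tissues, had 2182, 1690.2 and 1287 in co-culture, 288, 415 and 302 with TGF-β and 240.3, 261 and 222 in monoculture. Co-culture libraries lay several-fold above all others but spread widely, and every TGF-β library was above every monoculture library. The log2 fold change of Ldhb was 2.75 ± 0.19 (limma adjusted p = 8.99e-08) for co-culture over monoculture, 2.31 ± 0.19 (limma adjusted p = 9.54e-07) for co-culture over TGF-β and 0.44 ± 0.19 (limma adjusted p = 0.297) for TGF-β over monoculture, the last not called. Ldha, the isozyme that favours lactate, had 53093, 54412 and 73896 in co-culture, 80586, 95589 and 70938 with TGF-β and 94912, 92658 and 79992 in monoculture. Co-culture was lower than monoculture with no overlap, at -0.57 ± 0.14 (limma adjusted p = 0.00591), and co-culture 3 overlapped the TGF-β range.

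Pyruvate dehydrogenase kinases switch off pyruvate dehydrogenase and so the oxidation of pyruvate in mitochondria. Pdk1, a HIF-1 target, had 10287, 10998 and 14316 in co-culture, 12237, 11931 and 11703 with TGF-β and 15629.8, 17619 and 14658 in monoculture. Co-culture and TGF-β libraries were all below monoculture, at -0.44 ± 0.11 (limma adjusted p = 0.00821) and -0.41 ± 0.11 (limma adjusted p = 0.0751), of which only the first passed. Without co-culture 1 it did not, at -0.34 (limma adjusted p = 0.0526). Pdk2 had 823, 647 and 696 in co-culture, 1003, 721 and 859 with TGF-β and 924, 966 and 996 in monoculture, with every co-culture library below every monoculture library, and its log2 fold change was -0.42 ± 0.14 (limma adjusted p = 0.0349). It was lost without co-culture 2, co-culture 3 or any 1 of the monoculture libraries, at -0.44 to -0.34 (limma adjusted p = 0.0554 to 0.147). Pdk3 had 1899.6 to 2024 in co-culture, 1853 to 2049 in TGF-β libraries and 1734 to 2283 in monoculture, which overlapped. Pdk4, a gene induced by fasting in other tissues, was at most 20.7 in any library and at 0 in TGF-β 1.

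**Figure D2:**
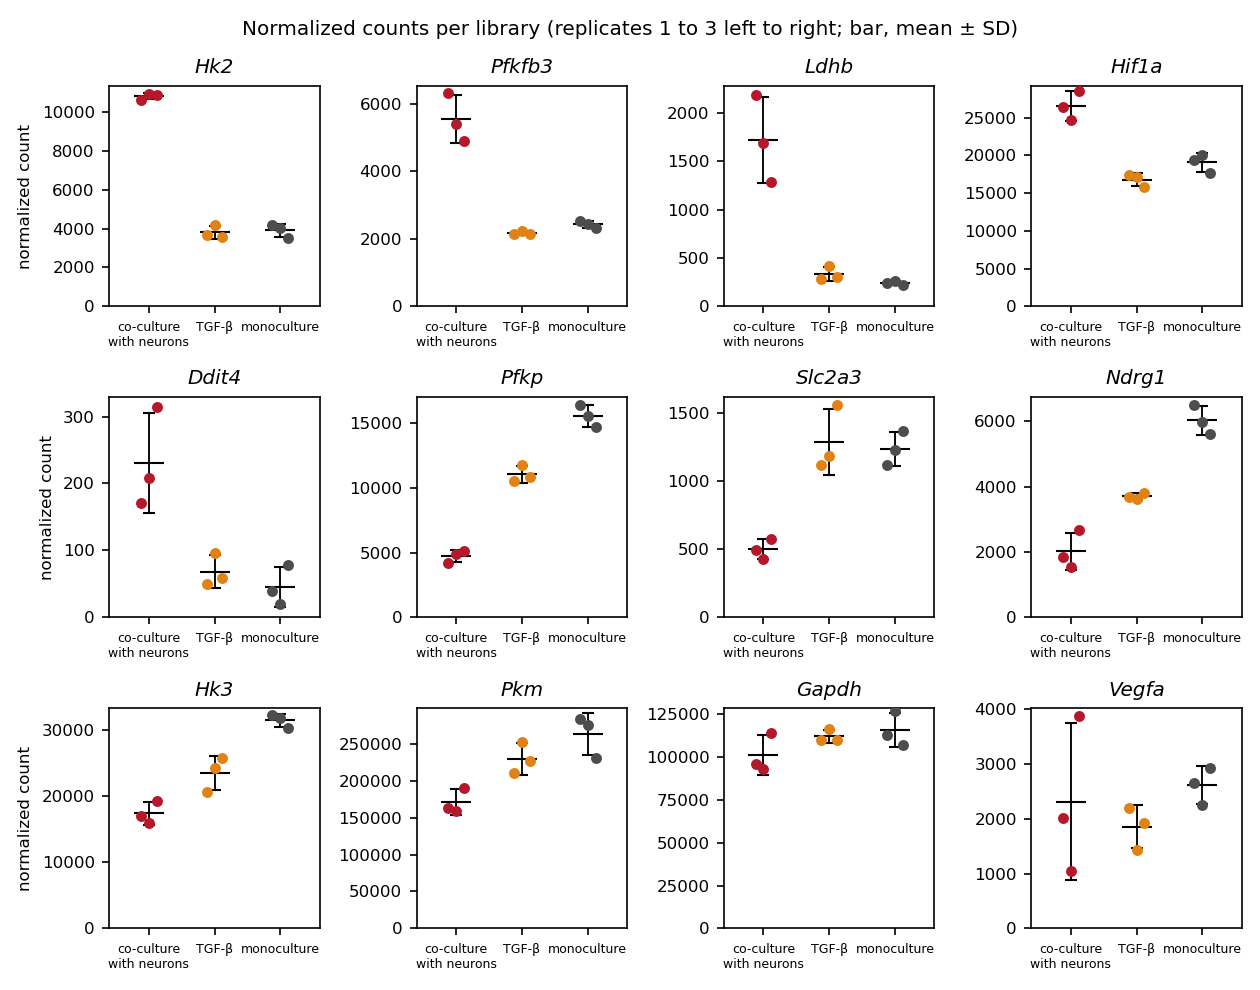
Normalized counts (y axes, each from 0) of 12 of the genes in each library (points, replicates 1 to 3 left to right) by group (x axes), with bars for the mean ± SD. Hk2, Pfkfb3, Ldhb, Hif1a and Ddit4 are higher in every co-culture library, Pfkp, Slc2a3, Ndrg1, Hk3 and Pkm lower, Gapdh overlaps, and Vegfa spreads from 1051 to 3870 within co-culture.

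Levels were divided by kilobases of exon, counted over all annotated exons of a gene rather than over the transcripts in use. Levels of different genes are thus only roughly comparable. On this scale the makeup of the isozyme families shifted in co-culture. Of hexokinase transcripts Hk2 supplied 24.2 ± 1.82% in co-culture, 7.63 ± 0.776% with TGF-β and 6.01 ± 0.262% in monoculture (mean ± SD, n = 3 each). Hk3 remained the leading isozyme, at 62.9 ± 1.48% in co-culture, 76.0 ± 2.12% with TGF-β and 78.8 ± 1.23% in monoculture. Summed hexokinase per kilobase was 7507 ± 562 in co-culture, 8397 ± 739 with TGF-β and 10871 ± 519 in monoculture, so the total in co-culture lay below monoculture although Hk2 was higher. For phosphofructokinase Pfkl gave 67.0 ± 2.24% in co-culture, 47.8 ± 1.85% with TGF-β and 44.7 ± 1.43% in monoculture, and Pfkp gave 16.1 ± 1.23% in co-culture, 35.9 ± 1.84% with TGF-β and 41.0 ± 1.85% in monoculture. The summed level of this family was 2189 ± 161 in co-culture, 2293 ± 74.9 with TGF-β and 2828 ± 147 in monoculture. On this scale Pfkl was well ahead of Pfkp in co-culture and near it in monoculture. The order in monoculture rests on the lengths, 6.675 kb for Pfkl and 13.401 kb for Pfkp. Mean normalized counts, not divided by length, were 9812 for Pfkl and 4733 for Pfkp in co-culture. In monoculture they were 8446 for Pfkl and 15533 for Pfkp.

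Among the PFKFB genes Pfkfb3 gave 58.3 ± 2.89% in co-culture, 33.9 ± 2.25% with TGF-β and 35.4 ± 1.21% in monoculture, and Pfkfb4 led in the other groups. The PFKFB sum was 1253 ± 115 in co-culture, 852 ± 54.7 with TGF-β and 908 ± 27.1 in monoculture, and it was the one of these 8 families whose mean total was higher in co-culture than in monoculture. Of lactate dehydrogenase transcripts Ldhb gave 5.89 ± 2.23% in co-culture, 0.848 ± 0.0879% with TGF-β and 0.568 ± 0.0321% in monoculture, so Ldha still made up at least 92.0% in every library. The log2 ratio of Hk2 to Hk1 was higher by 2.24 in co-culture than in monoculture, that of Ldhb to Ldha by 3.38 and that of Pfkfb3 to Pfkfb4 by 1.41, while that of Pfkp to Pfkl differed by -1.93. In these 4 ratios no co-culture library overlapped a monoculture library, and the exact two-sided permutation p was 0.1, the smallest that 3 against 3 libraries can give. With TGF-β against monoculture the same differences were 0.23, 0.58, -0.10 and -0.29, with exact permutation p of 0.1, 0.1, 0.4 and 0.1. Such full separation of co-culture from monoculture also held for Aldoc to Aldoa (0.42), Eno2 to Eno1 (-1.08) and Slc2a3 to Slc2a1 (-0.67). Each had an exact permutation p of 0.1. In all 8 pairs were examined in 24 tests, none of which can pass a threshold of 0.05. The smallest difference of co-culture over monoculture was that of Pdk1 to Pdk3, at -0.38 (exact permutation p = 0.2).

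**Figure D3:**
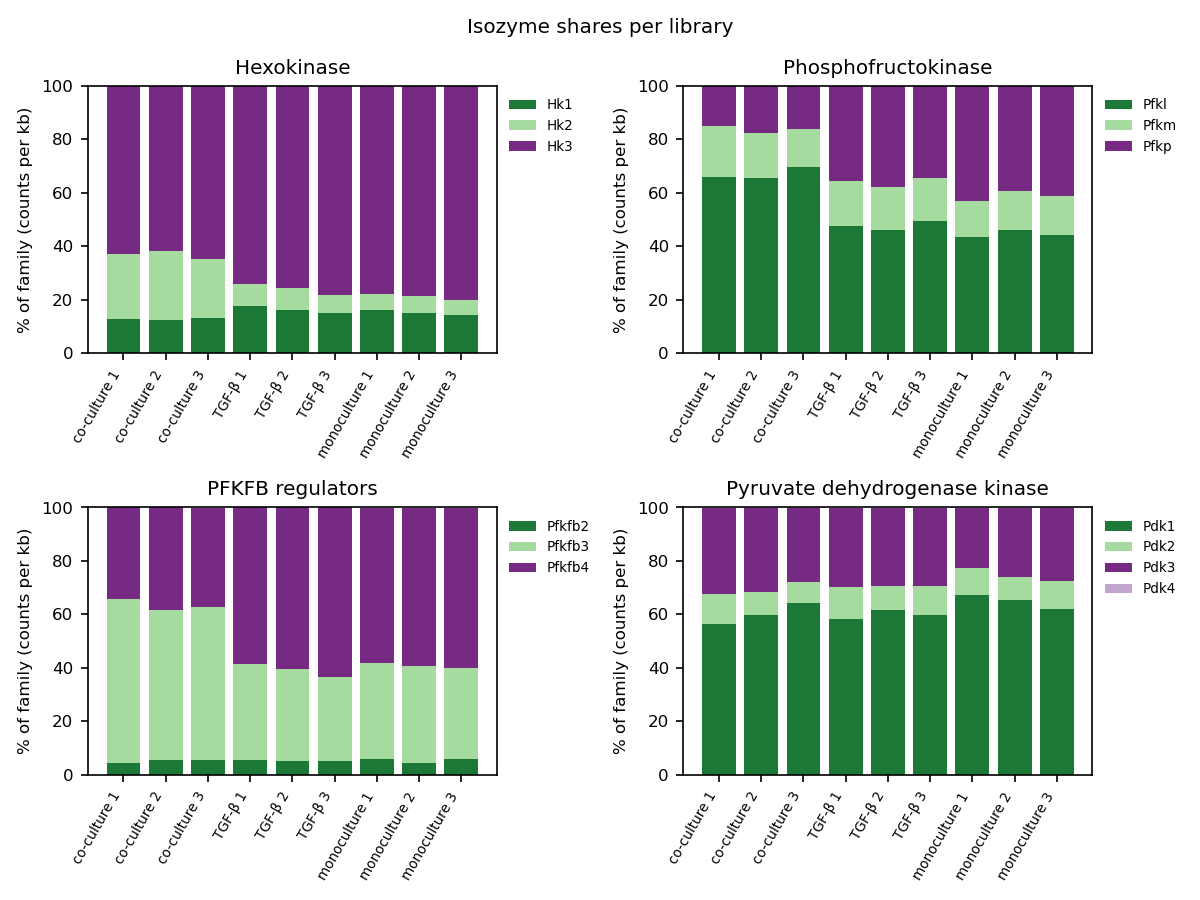
Share of each isozyme family (y axes, percent of the summed normalized counts per kilobase of exon) held by each gene (colors) in the 9 libraries (x axes). Hk2 takes 22.4 to 26.0% of hexokinase in co-culture and at most 8.09% elsewhere, and Pfkl 65.6 to 69.6% of phosphofructokinase in co-culture and at most 49.7% elsewhere.

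The transcript of HIF-1 alpha itself was higher in co-culture, while its hydroxylases and classical targets were mixed. Hif1a had 26406, 24712 and 28568 in co-culture, 17409.9, 17095 and 15832 with TGF-β and 19437, 20122 and 17687 in monoculture. Every co-culture library was above every other library, every TGF-β library was below every monoculture library, and the log2 fold change of co-culture was 0.48 ± 0.09 (limma adjusted p = 0.000603) over monoculture and 0.66 ± 0.09 (limma adjusted p = 4.9e-05) over TGF-β. The difference of TGF-β to monoculture did not pass, at -0.18 ± 0.09 (limma adjusted p = 0.331). Egln1, the main oxygen-sensing prolyl hydroxylase PHD2, had 6976 to 8682 in co-culture, 6945 to 7294 in TGF-β libraries and 7787 to 8303 in monoculture and was not called in any comparison. Egln3, the hypoxia-induced hydroxylase PHD3, had 360.0, 303 and 914 in co-culture, 313, 328 and 249.975 with TGF-β and 406, 344 and 396 in monoculture. Co-culture 3 was well above all other libraries, the other 2 co-culture libraries lay within the span of the other groups, and the log2 fold change over monoculture was 0.28 ± 0.33 (limma adjusted p = 0.577).

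Of the 5 HIF-1 targets outside glycolysis, 2 rose, 1 fell and 2 were not called in co-culture. Ddit4 (REDD1), an inhibitor of mTORC1, had 170.1, 208 and 314 in co-culture, 49.6, 96.1 and 59.1 with TGF-β and 39.0, 19.6 and 77.5 in monoculture. All co-culture libraries were above all others, at 2.22 ± 0.38 (limma adjusted p = 0.000429) over monoculture. P4ha1, a collagen prolyl hydroxylase subunit, had 17149.5, 15366 and 18343 in co-culture, 13641, 13485 and 11996 with TGF-β and 14355, 14289.7 and 11918 in monoculture. Its co-culture libraries were above all others, at 0.33 ± 0.10 (limma adjusted p = 0.0198) over monoculture. The call was lost without co-culture 1, co-culture 3 or monoculture 3, at 0.24 to 0.32 (limma adjusted p = 0.0666 to 0.0858). All 14 tested fibroblast markers, collagen genes among them, were also higher in these libraries, and their part in P4ha1 was not tested. Ndrg1, a stress gene also known as a metastasis suppressor, had 1844, 1543 and 2659 in co-culture, 3679, 3619 and 3816 with TGF-β and 6487, 5981 and 5610.1 in monoculture. The groups of Ndrg1 did not overlap, with co-culture lowest and TGF-β between, and the log2 fold change against monoculture was -1.61 ± 0.15 (limma adjusted p = 5.51e-06) in co-culture and -0.70 ± 0.15 (limma adjusted p = 0.0364) with TGF-β. Vegfa, the angiogenic factor, had 2005, 1051 and 3869.7 in co-culture, 2202, 1425 and 1925 with TGF-β and 2653, 2252 and 2929.8 in monoculture. Bnip3, a mitophagy receptor, had 4449, 3953 and 8077 in co-culture, 5766, 4681 and 4097 with TGF-β and 5012, 5859 and 5466 in monoculture. For both genes the co-culture libraries spanned the whole range of the other groups, and the log2 fold changes over monoculture were -0.36 ± 0.45 (limma adjusted p = 0.603) for Vegfa and -0.06 ± 0.25 (limma adjusted p = 0.895) for Bnip3.

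**Figure D4:**
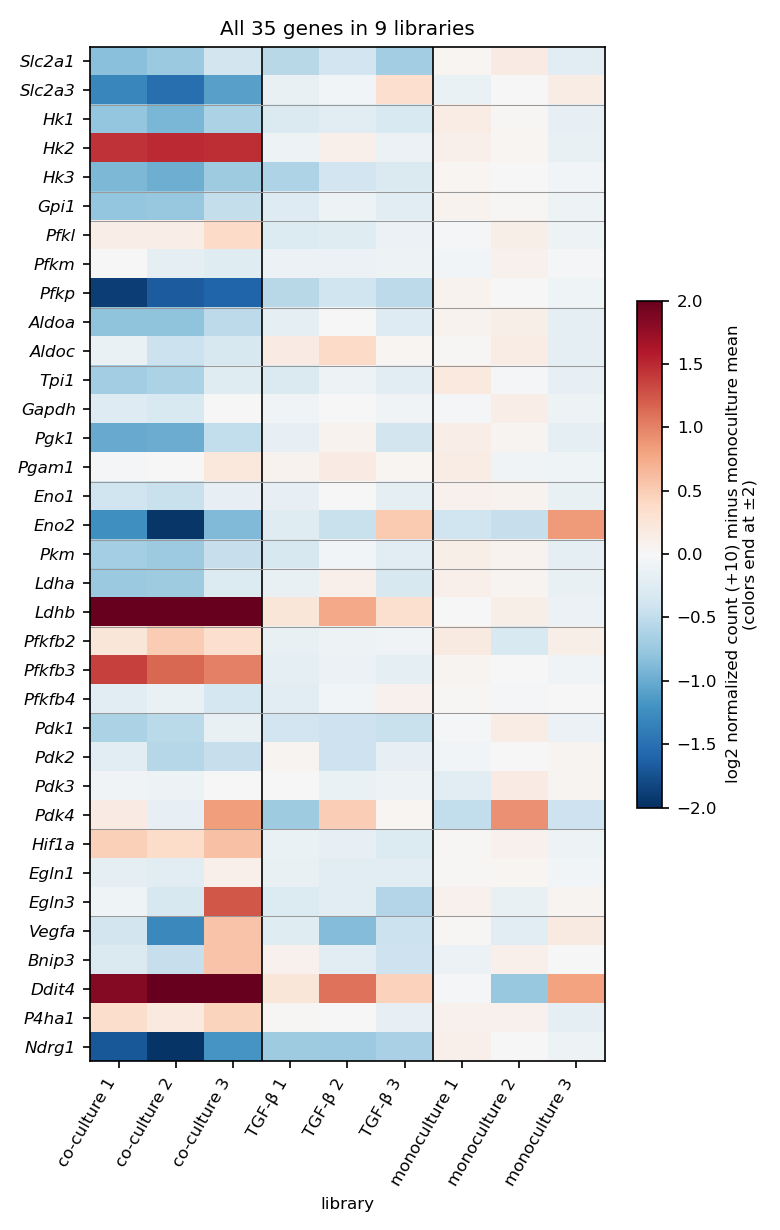
Log2(normalized count + 10) minus the monoculture mean (color, ending at ±2) for the 35 genes (rows) in the 9 libraries (columns). Red rows for Hk2, Pfkfb3, Ldhb and Ddit4 and blue rows for Pfkp, Slc2a3 and Ndrg1 run through all 3 co-culture libraries, whereas Egln3 and Vegfa are clearly red in co-culture 3 and not in the other 2.

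Co-culture 3 stood apart from the other co-culture libraries for these genes. It was the highest of its group for 27 of the 35 genes (77.1%), against 37.0% of all tested genes, with a median of 0.26 (log2) over the mean of the other 2. Among HIF-1 targets the gap was 1.44 for Egln3, 1.41 for Vegfa, 0.94 for Bnip3, 0.71 for Ddit4 and 0.65 for Ndrg1. In glycolysis the gap was 0.50 for Pgk1, 0.46 for Ldha and 0.42 for Slc2a1, while Ldhb (-0.57) and Pfkfb3 (-0.25) were below the other 2. Among 33 other known HIF-1 targets co-culture 3 was highest for 20 (60.6%), with gaps of 2.63 for Arg1, 1.33 for Ak4 and 1.19 for Hilpda. Without co-culture 3, 21 of the 35 genes were called against monoculture: Bnip3 was added at -0.37 ± 0.13 (limma adjusted p = 0.0494), and Pdk2 and P4ha1 were lost. Vegfa then stood at -0.83 ± 0.28 (limma adjusted p = 0.0598). The difference of Pgk1 was then -0.99 ± 0.13 (limma adjusted p = 6.28e-05), that of Ldha -0.73 ± 0.13 (limma adjusted p = 0.000698) and that of Slc2a1 -0.79 ± 0.12 (limma adjusted p = 0.000226), each farther from 0 than with it. Of the 18 enzymes co-culture 3 was the highest of its group for 14, and TGF-β 2 likewise for 14, where TGF-β 2 was highest for 35.02% of all tested genes. Markers of other cells also differed in co-culture 3. Neuron markers without Uchl1 summed to 334, against 187 and 173 in co-culture 1 and 2, and fibroblast markers to 10825, against 7491 and 9607. Glial markers without Pmp22 and Mbp (2080 against 2231 and 1811) and endothelial markers (4254 against 4529 and 4996) were not highest. Their part in the gap was not tested.

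**Figure D5:**
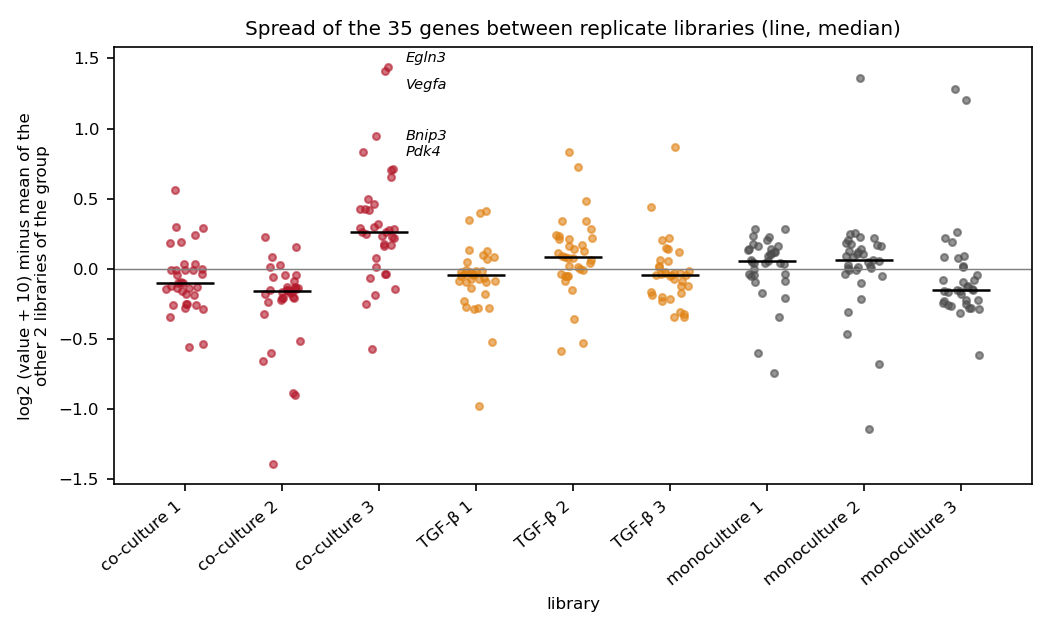
Difference of each gene (points, log2(value + 10)) from the mean of the other 2 libraries of its group (y axis) in each of the 9 libraries (x axis), with a line at the median of the 35 genes. The points of co-culture 3 lie mostly above 0, with Egln3 (1.44) and Vegfa (1.41) highest.

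TGF-β alone moved few of these genes. Against monoculture 4 of the 35 were called, all lower: Slc2a1, Hk3, Pfkp and Ndrg1, whose values stand above. Over all tested genes 2.52% were called, 1.13% higher and 1.39% lower. In 14 genes every TGF-β library was below every monoculture library, and in 1, Ldhb, every one was above, where 9.64% and 7.27% of all tested genes (16.9% either way) were separated so. The median log2 fold change over the 35 genes was -0.16, and -0.01 over all tested genes. All 4 also fell in co-culture, in a comparison that uses the same monoculture libraries. These calls depended on single libraries. Without TGF-β 1 limma called 0 of the 35, with 7 at an unadjusted p under 0.05, while edgeR called 0 and DESeq2 3. Without TGF-β 2, monoculture 1 or monoculture 2 limma called 1, Pfkp, and without TGF-β 3, co-culture 1 or monoculture 3 it called 2. In the libraries' absence the log2 fold changes of lost calls were -0.45 to -0.34 for Hk3, -0.75 to -0.64 for Ndrg1, -0.62 to -0.46 for Slc2a1 and -0.46 for Pfkp. With all libraries edgeR called 3 of the 35, without Slc2a1, and DESeq2 5, with Pdk1 added.

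Co-culture was also set against TGF-β directly, which uses the same co-culture libraries again. Of the 35 genes 19 were called, 7 higher and 12 lower, where 25.3% of all tested genes were called, 13.4% higher and 11.9% lower. The libraries of the groups were fully apart in 8 higher and 11 lower genes, where this held for 21.3% and 19.8% of all tested genes (41.0% either way). The 7 were Hk2, Pfkl, Ldhb, Pfkfb3, Hif1a, Ddit4 and P4ha1. The 12 included Pfkp, Slc2a3 at -1.34 ± 0.15 (limma adjusted p = 1.44e-05), Ndrg1 at -0.91 ± 0.15 (limma adjusted p = 0.000853), Pgk1 at -0.67 ± 0.15 (limma adjusted p = 0.00489), Aldoa at -0.56 ± 0.12 (limma adjusted p = 0.00259) and Ldha at -0.45 ± 0.14 (limma adjusted p = 0.0285). The Ldha call was lost without co-culture 1, co-culture 2, TGF-β 1 or TGF-β 2, at -0.46 to -0.34 (limma adjusted p = 0.0731 to 0.127). The other calls lost without 1 library were P4ha1 without co-culture 3, at 0.32 (limma adjusted p = 0.0506), Eno2 without co-culture 1, co-culture 2, TGF-β 1 or TGF-β 3, at -1.40 to -1.01 (limma adjusted p = 0.0688 to 0.135), and Pkm without co-culture 1, co-culture 2 or TGF-β 2, at -0.40 to -0.36 (limma adjusted p = 0.0607 to 0.0732). The transporter Slc2a1 (-0.10 ± 0.13, limma adjusted p = 0.64) and Eno1 (-0.21 ± 0.10, limma adjusted p = 0.16) were not called between these groups.

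Pathways around glycolysis were examined through lists of other genes, with counts for co-culture against monoculture to be read beside the shares of all tested genes given above. In the pentose phosphate pathway, which draws on glucose 6-phosphate to make NADPH, 4 of 7 fell and 0 rose, with a median log2 fold change of -0.30, and without co-culture 3 the count was 3. G6pdx, its first enzyme, averaged 14376 ± 533 in co-culture and 28270.5 ± 3669.7 in monoculture (SD, n = 3 each), at -0.97 ± 0.10 (limma adjusted p = 3e-06), and Taldo1, Pgd and Tkt fell by 0.62 ± 0.10, 0.54 ± 0.10 and 0.30 ± 0.09 on the log2 scale. Among 14 genes of lactate and pyruvate transport and pyruvate dehydrogenase, 3 fell and 0 rose, with a median of -0.12. They were the pyruvate carboxylase Pcx, which averaged 333 ± 74.2 in co-culture and 844 ± 56.2 in monoculture at -1.34 ± 0.16 (limma adjusted p = 1.36e-05), the pyruvate dehydrogenase phosphatase Pdp1 at -0.99 ± 0.13 (limma adjusted p = 5e-05) and the lactate exporter Slc16a3 (MCT4) at -0.54 ± 0.15 (limma adjusted p = 0.0178).

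In glycogen and glucose synthesis, 3 of 15 tested genes rose and 5 fell, with a median of -0.00497. Ppp1r3b, which directs protein phosphatase 1 to glycogen, averaged 4714 ± 339.9 in co-culture and 1805 ± 194 in monoculture, at 1.38 ± 0.12 (limma adjusted p = 7.92e-07), and the branching enzyme Gbe1, which is also in the list of HIF-1 targets, averaged 2314 ± 116 in co-culture and 5143 ± 562 in monoculture, at -1.14 ± 0.09 (limma adjusted p = 3.33e-07). Of 11 other glycolysis isozymes and transporters 2 fell, Slc2a9 at -0.60 ± 0.11 (limma adjusted p = 0.000765) and Gpd2 at -0.31 ± 0.10 (limma adjusted p = 0.0222). Of 17 regulators of glycolysis 1 rose and 5 fell, with a median of -0.03, and without co-culture 3 the counts were 2 and 4. Txnip, a glucose-responsive brake on glucose uptake, averaged 18394 ± 3371 in co-culture and 34941 ± 511 in monoculture, at -0.94 ± 0.11 (limma adjusted p = 1.64e-05), and the mTORC1 subunit gene Rptor averaged 7692 ± 259.9 in co-culture and 14074 ± 653 in monoculture, at -0.87 ± 0.09 (limma adjusted p = 2.48e-06).

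Among 13 genes of oxygen sensing and HIF subunits 3 rose and 3 fell, with a median of -0.08, and without co-culture 3 the counts were 3 and 1. Epas1, which encodes HIF-2 alpha, averaged 2436 ± 173 in co-culture and 1232 ± 205 in monoculture, at 0.99 ± 0.14 (limma adjusted p = 5.93e-05). Vhl, whose product marks hydroxylated HIF alpha for destruction, averaged 1643 ± 92.5 in co-culture and 1166 ± 156 in monoculture, at 0.50 ± 0.12 (limma adjusted p = 0.00629). Among those that fell were Cited2 at -0.59 ± 0.09 (limma adjusted p = 0.000199) and Siah2 at -0.38 ± 0.13 (limma adjusted p = 0.0451). Of the 33 other HIF-1 targets 9 rose and 4 fell, with a median of 0.02, and without co-culture 3 the counts were 8 and 7, with Ak4 (-1.42 ± 0.26, limma adjusted p = 0.00103) and Hilpda (-0.62 ± 0.21, limma adjusted p = 0.0384) then among the lower. Arg1, the arginase of alternatively activated macrophages, had 2890.0, 2776 and 17617 in co-culture, 495, 496 and 261 with TGF-β and 403, 455 and 336 in monoculture. All co-culture libraries were above all others, and replicate 3 was far above its own group, with a log2 fold change of 3.69 ± 0.74 (limma adjusted p = 0.0101) over monoculture. Lox at 4.72 ± 0.32 (limma adjusted p = 6e-08) and Cxcr4 at 3.06 ± 0.19 (limma adjusted p = 3.94e-07) also rose in co-culture over monoculture. Lox had 451 to 876 in co-culture and 4.37 to 23.2 in the other libraries. Fibroblast markers were also higher in the co-culture libraries, and their part in Lox was not tested. Ankrd37, a small hypoxia-induced gene, had 323, 271 and 624 in co-culture, 801, 774 and 934 with TGF-β and 1115, 909 and 1188 in monoculture, at -1.46 ± 0.25 (limma adjusted p = 0.000743). With TGF-β against monoculture, Cxcr4 (1.84 ± 0.19), Gbe1 (-0.44 ± 0.09) and Rptor (-0.37 ± 0.09) were the genes called among all 7 lists.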

How the data were processed

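RNA-seq of 9 libraries was analysed. Per the submitters' processing notes, STAR 2.7.3 and bcl2fastq 2.20 were used with R 3.6.1 and DESeq2 1.24.0, and the build was mm10; roles, annotation, counting program and use of strand are not given in the sources used here. The authors deposited 1 signal value per gene and library, which is the read count divided by 1 size factor per library: every value gave whole reads within 0.05. These values are called normalized counts.

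Genes with at least 10 in at least 3 libraries (16328 of 24607) were tested with limma 3.58.1 (R 4.3.3, trend and robust empirical Bayes) on log2(value + 10), a scale that understates changes of low genes. All libraries entered 1 fit with group as the factor, p-values were adjusted by Benjamini-Hochberg over all tested genes, and an adjusted p under 0.05 made a call. This test had been planned for scaled values, and a count test would have been the main test only for whole counts. As alternatives edgeR 4.0.16 and DESeq2 1.42.0 were run on the recovered reads. The fit was run on simulated data with changes planted in co-culture alone and not in low genes. That run did not cover TGF-β against monoculture. Other alternatives were the pseudocount, the filter, TMM scaling, only the groups compared, a replicate block and leaving out each library.

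Members and lists were chosen with earlier results of these data known. From each pathway list up to 4 called genes of largest log2 fold change in co-culture over monoculture, and up to 2 with TGF-β over monoculture, could be named. Ak4 and Hilpda, Ngfr, Sox10, Snap25, Rbfox3, Tubb3, Nefm, Uchl1, the Y-linked genes, Xist and the libraries left out singly were chosen once their values were known. So were the glial sums without Pmp22 and Mbp and the marker sums set beside co-culture 3. Exon lengths came from GENCODE M21 (24335 of 24607 identifiers and all 35 members matched), and promoter windows from RefSeq. Intervals are standard errors of the fit and cover the spread between 3 libraries.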

Additional observations from a re-analysis of the deposited data

How the results depend on the processing

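For co-culture against monoculture the 22 calls (6 higher, 16 lower) stayed at 21 to 22 over all alternatives that kept every library, and for co-culture against TGF-β the 19 calls were 18 to 21. Without 1 library the counts were 19 to 23 (5 to 6 higher, 13 to 17 lower) and 16 to 20 (6 to 8 higher, 9 to 13 lower), and those of all genes 3909 to 5464 and 2959 to 4601. TGF-β against monoculture depended most on the processing: of its 4 calls 1 was left with no filter on low values, all lower, leaving out 1 library gave 0 to 5 calls (0 to 5 lower), and the 412 calls over all genes were 165 to 939 without 1 library and 897 with DESeq2. The cause was not tested. Deviations from the group means correlated at -0.147 to 0.372 in 9 pairs of same-numbered libraries (median 0.0439). In 18 other pairs they correlated at -0.351 to 0.249 (median -0.0274). With deviations taken within groups of 3, this cannot show that donors were not shared. Sex also goes with the number, replicate 1 being male in every group. The main fit did not take the numbers as pairs. With the replicate block 22 of the 35 genes were called for co-culture over monoculture. It called 3 for TGF-β over monoculture, without Slc2a1, and 18 for co-culture over TGF-β, without Ldha.

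No called gene changed direction under any alternative. Among results that were not called, Bnip3 in co-culture against monoculture was 0.00159 with edgeR and 0.0117 with DESeq2. The remaining changes of sign came from leaving out 1 library, with these ranges of log2 fold change. In co-culture against monoculture they were -0.37 to 0.14 for Bnip3, -0.20 to 0.58 for Egln3, -0.83 to 0.10 for Vegfa, -0.17 to 0.0267 for Pdk3 and -0.00971 to 0.14 for Pgam1. In TGF-β against monoculture they were -0.34 to 0.38 for Eno2, -0.0935 to 0.0268 for Gapdh, -0.11 to 0.0169 for Hk2, -0.14 to 0.00975 for P4ha1, -0.19 to 0.00716 for Pdk3, -0.34 to 0.39 for Pdk4, -0.13 to 0.0213 for Pfkfb4 and -0.10 to 0.14 for Slc2a3. In co-culture against TGF-β they were -0.19 to 0.32 for Bnip3, -0.00333 to 0.15 for Egln1, -0.17 to 0.0697 for Pdk1, -0.00911 to 0.0632 for Pdk3, -0.10 to 0.0132 for Pfkm, -0.10 to 0.0169 for Pgam1 and -0.32 to 0.61 for Vegfa. Isozyme ratios changed sign in 3 cases without 1 library: Aldoc over Aldoa (-0.0567 to 0.18) and Pdk1 over Pdk3 (-0.16 to 0.0458) in co-culture against TGF-β, and Eno2 over Eno1 (-0.26 to 0.58) in TGF-β against monoculture. With 3 libraries a group, differences of the size of 1 standard error were not detectable.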
